A study of Mus musculus with 6 samples.

Results

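The let-7 and miR-98 guide strands are the 9 microRNAs mmu-let-7a, mmu-let-7b, mmu-let-7c, mmu-let-7d, mmu-let-7e, mmu-let-7f, mmu-let-7g, mmu-let-7i and mmu-miR-98 (the prefix for mouse is left off below), measured here in mouse osteoclasts. They were chosen by name and by having a value in every sample. The rule set no further threshold of level, but the choice was made with earlier results of these data known. All 9 assays met this rule, out of 95 assays with values in all 6 samples and 709 microRNA assays on the array. The study used quantitative PCR arrays to compare osteoclasts of mice whose osteoclast miRNAs had been knocked down (OCmiR-KD, 3 samples, here KD) with osteoclasts of control mice whose osteoclast miRNAs were intact (OCmiR-Intact, 3 samples, here Intact). Osteoclasts are the multinucleated cells that resorb bone, and in both groups they had been sorted magnetically from bone marrow as OSCAR+CTR+ cells. Neither the labels nor the files describe how the knockdown was made or the strain and age of the mice. The design text describes RNA of 3 mice a group as pooled, so the samples of a group may be mice or repeat measurements of one pool, and the p-values below may reflect technical spread only.

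A miRNA is a short RNA that guides an Argonaute protein to messenger RNAs, which are then translated less and decay faster. The guide strand is the one kept by Argonaute, and its seed, bases 2 to 8, does most of the pairing with the target. The let-7 family was found through its control of developmental timing in the nematode, is abundant in differentiated cells of mammals, and represses growth-promoting genes such as Hmga2, Ras genes, Myc and Lin28. The LIN28 proteins in turn block the maturation of let-7 precursors. Drosha cuts these precursors out of longer transcripts, and Dicer then cuts the mature strands out of the precursors.

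The mature sequences show how close the members are, which limits how far their assays can be told apart. They are printed 5′ to 3′ as the deposited table gives them, with the seed in capitals, and each is identical to the RefSeq entry for the same strand (annotation of GRCm38.p6).
let-7a: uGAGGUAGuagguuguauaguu
let-7b: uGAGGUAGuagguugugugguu
let-7c: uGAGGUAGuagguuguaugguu
let-7d: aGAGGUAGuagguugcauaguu
let-7e: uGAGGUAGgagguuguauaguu
let-7f: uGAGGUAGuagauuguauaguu
let-7g: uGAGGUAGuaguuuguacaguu
let-7i: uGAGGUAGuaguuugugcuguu
miR-98: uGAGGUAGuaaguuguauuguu

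All 9 share 1 seed and a length of 22 bases, and 14 of the 22 positions are the same in every member. Counting positions from 1 at the 5′ end and naming the base of let-7a first, let-7c differs from let-7a by A19G, let-7e by U9G and let-7f by G12A. let-7b carries A17G and A19G, let-7d carries U1A and U16C, let-7g carries G12U and U18C, and miR-98 carries G11A and A19U. let-7i is the farthest from let-7a, with G12U, A17G, U18C and A19U. Position 19 varies most, differing from let-7a in 4 members. The G and C content ran from 7 bases in let-7f and miR-98 to 10 in let-7b. Only 1 other assay on the array has this seed, the 17-base miR-1961, and it has no value in any sample.

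Levels are given as minus delta Ct. Ct is the PCR cycle at which the fluorescence crosses a threshold, and delta Ct is the Ct of the miRNA minus that of the reference U6, a small nuclear RNA, read in that sample on the same plate. A level is therefore in log2 units relative to U6 and assumes doubling in each cycle. All 9 assays lie on plate 1. A level also depends on the primers of an assay, so the order of members is an order of assay readings and not of molecule numbers.

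A limit bears on every KD value below. For this check the Ct of U6 on plate 1 was subtracted from the Ct of every assay, whichever its plate. For the members this is delta Ct. Taken as 2 to the minus this difference, the 3 KD levels of each of the 9 members average 1 to within 0.001. They do so in 88 of all 95 assays. In the Intact samples this holds for 0 of 9 members and 0 of 95 assays, where the members' linear means run from 12.7 for miR-98 to 484 for let-7i. Since delta Ct is the deposited Ct minus that of U6, the KD Ct values themselves carry this adjustment and cannot be plain cycle readings, which also touches every use of Ct below. The KD mean of a member is thus fixed and is no measurement of its own, while the spread of the 3 KD values around it differs between members. Neither the labels nor the files say whether the Intact values went through the same step. If they were, an Intact level would be a ratio to KD and not a level relative to U6. Because the 3 KD values share a fixed mean, they are not independent, as the tests below assume.

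**Figure D1:**
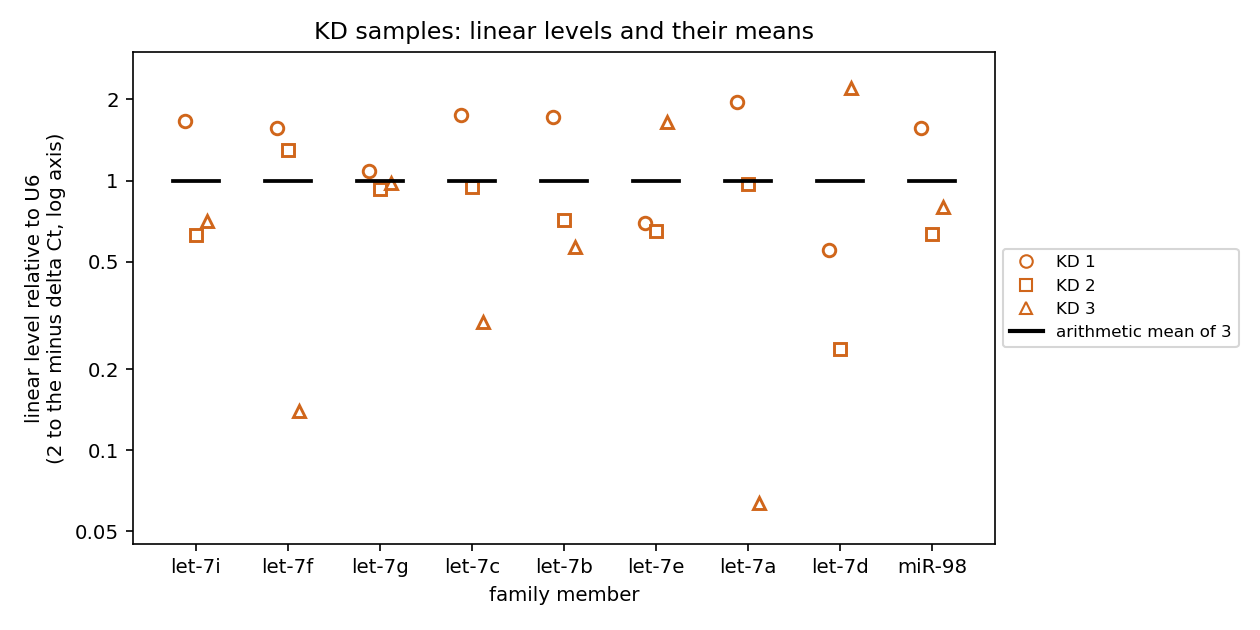
Linear levels of the 9 members relative to U6 in the 3 KD samples (symbols, log axis), with the arithmetic mean of the 3 as a black bar. Every bar lies at 1, whereas the 3 values of let-7a run from 0.0638 to 1.96 and those of let-7g from 0.932 to 1.09.

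In Intact osteoclasts let-7i had the highest level of the 9 members, and its deposited Ct was the second-lowest of the 95 assays. let-7i, known to repress the Toll-like receptor gene Tlr4, stood at 9.44, 8.80 and 8.30 in Intact samples 1, 2 and 3, and at 0.74, -0.67 and -0.50 in KD samples 1, 2 and 3. Its groups lay 7.56 log2 units apart at their nearest values. The mean level was 8.84 ± 0.57 in Intact and -0.15 ± 0.77 in KD samples (SD, n = 3 each).

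Below it, let-7f, let-7g and let-7c formed a group of close levels. let-7f, made from a gene on chromosome 13 and another on X, stood at 7.05, 7.34 and 7.27 in Intact and at 0.64, 0.38 and -2.84 in KD samples. let-7g stood at 7.26, 7.20 and 6.86 in Intact and at 0.12, -0.10 and -0.029 in KD samples. let-7c, which is known to act on the polarization of macrophages, cells of the osteoclast lineage, stood at 6.75, 6.94 and 7.17 in Intact and at 0.81, -0.082 and -1.74 in KD samples. In all of these the Intact and KD samples were fully apart, and KD sample 3 was the low one for let-7f and let-7c. let-7g had the tightest KD values of the family, with an SD of 0.11 (n = 3) against 1.94 for let-7f and 1.30 for let-7c.

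let-7b, let-7e and let-7a followed. let-7b stood at 6.57, 6.48 and 6.53 in Intact samples, the smallest spread of the family (6.53 ± 0.047, SD, n = 3), and at 0.78, -0.48 and -0.82 in KD samples. let-7e, a miRNA induced by bacterial lipopolysaccharide in macrophages, stood at 5.96, 5.87 and 5.72 in Intact and at -0.52, -0.63 and 0.73 in KD samples. let-7a, the member whose sequence is the same in worms and mammals, stood at 4.94, 5.01 and 5.14 in Intact and at 0.97, -0.037 and -3.97 in KD samples. The Intact samples were close for all of these and lay above every KD sample. KD sample 3 was the lowest of its group for let-7a and let-7b and the highest for let-7e. The KD spread of let-7a, with an SD of 2.61 (n = 3), was the widest of the family.

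let-7d and miR-98 had the lowest Intact levels. let-7d stood at 3.74, 3.49 and 3.80 in Intact and at -0.86, -2.08 and 1.15 in KD samples, with KD sample 3 high. miR-98, known to repress the interleukin gene Il10 in macrophages, stood at 4.68, 1.28 and 3.35 in Intact and at 0.65, -0.66 and -0.32 in KD samples. Its Intact samples covered 3.40 log2 units, against 0.094 to 1.14 for the other members, and its lowest Intact value lay 0.64 above its highest KD value. The median SD of the 9 members over the Intact samples was 0.17 log2 units, against 0.48 over all 95 assays. Over the KD samples it was 0.85 for the members and 0.80 for all assays.

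**Figure D2:**
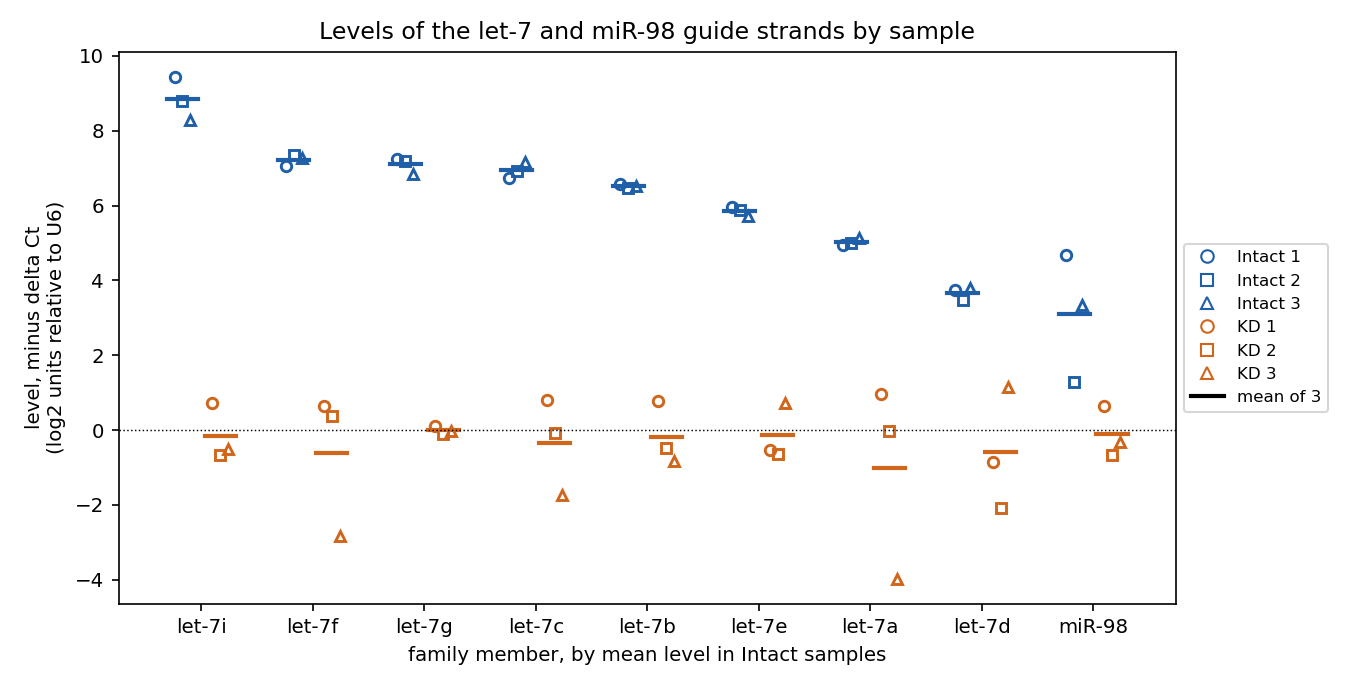
Levels of the 9 members in each sample as minus delta Ct (log2 units relative to U6), Intact in blue and KD in orange, with bars at the mean of 3. The Intact means fall from 8.84 for let-7i to 3.10 for miR-98, while the KD means lie between -1.01 and -0.003.

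In the Intact samples the order of the members was steady at its top and unsettled in 3 places, its low end among them. let-7i led in 3 of 3 Intact samples, by 1.62 ± 0.70 over let-7f (mean and SD of the difference within samples, n = 3). let-7f and let-7g differed by 0.12 ± 0.31, and let-7g and let-7c by 0.15 ± 0.42, both less than their SD and with the first higher in 2 of 3 samples. let-7c lay above let-7b by 0.43 ± 0.24, let-7b above let-7e by 0.68 ± 0.11, let-7e above let-7a by 0.82 ± 0.23 and let-7a above let-7d by 1.35 ± 0.16, each in 3 of 3 samples. let-7d and miR-98 differed by 0.57 ± 1.57 and changed places in Intact sample 1. With 3 samples these differences within samples were described and not tested. In the KD samples no neighbours in the order of means differed by more than the SD of their difference. With the linear KD means fixed, that order was the order of rising KD SD, from 0.11 for let-7g to 2.61 for let-7a. It therefore does not compare the levels of members.

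Compared with Intact samples, the deposited levels of all 9 members were lower in KD samples. The comparison asks which miRNAs were reduced in the knockdown. All 9 members fell (limma across the 95 assays, two-sided, Benjamini-Hochberg adjusted p under 0.05), where 80 of 95 assays, or 84.2%, fell and 0 rose. The members' full count therefore stands close to its background. In sorted cells as in any bulk sample, fewer cells that make a miRNA and less of it per cell cannot be told apart. Every KD sample lay below every Intact sample for 9 of 9 members and for 78 of the 95 assays, or 82.1%. With the KD means fixed, these differences mostly carry the Intact levels. The median difference of the 9 was -6.70 log2 units, a 104-fold lower level, beside -4.54 (23.3-fold) over the 95 assays.

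let-7i fell by 8.99 log2 units (SE 0.60, limma adjusted p = 1.52e-05), the second largest fall of the 95 after miR-200a. let-7f fell by 7.83 (SE 0.93, limma adjusted p = 0.000121), and let-7c fell by 7.29 (SE 0.71, limma adjusted p = 3.93e-05). let-7g fell by 7.11 (SE 0.45, limma adjusted p = 1.52e-05), the smallest SE of the family. These members ranked 2nd, 7th, 11th and 13th among the 95 falls by size. At ranks 17, 23 and 25 followed let-7b, which fell by 6.70 (SE 0.57), let-7a, which fell by 6.04 (SE 1.18), and let-7e, whose difference was -5.99 (SE 0.54). let-7d fell by 4.27 (SE 0.82, limma adjusted p = 0.00156) and miR-98 fell by 3.21 (SE 0.89, limma adjusted p = 0.00963), at ranks 55 and 70. The interval of the difference (95%) was -10.38 to -7.60 for let-7i and -5.28 to -1.14 for miR-98, so these ends of the family do not overlap.

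Single samples moved the linear fold behind some of these log2 differences by more than 1.5 times, though in no such case was the call lost. Without KD sample 3 the difference was -4.56 for let-7a, -6.59 for let-7c, -5.14 for let-7d and -6.71 for let-7f. Without KD sample 1 it was -7.03 for let-7a and -8.45 for let-7f, and without KD sample 2 it was -3.53 for let-7d. For miR-98 it was -2.42 without Intact sample 1 and -4.12 without Intact sample 2, and its largest adjusted p over the 6 omissions was 0.0477 (limma, without Intact sample 3). The linear folds of let-7b, let-7e, let-7g and let-7i moved by less than 1.5 times.

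The size of a fold also turned on how the replicates were averaged. The authors' deposited table, which divides Intact by KD after averaging on the log scale, gives 508 for let-7i, 227 for let-7f, 156 for let-7c, 138 for let-7g, 104 for let-7b, 65.8 for let-7a, 63.5 for let-7e, 19.3 for let-7d and 9.28 for miR-98. Folds recomputed from the mean delta Ct differed from these by at most 0.00254%. Ratios of the linear means instead gave 484 for let-7i, 150 for let-7f, 139 for let-7g, 125 for let-7c, 92.2 for let-7b, 57.8 for let-7e, 32.7 for let-7a, 12.8 for let-7d and 12.7 for miR-98. The 2 averages thus differed by 2.01 times for let-7a, whose KD levels spread most on the log scale, and by 0.995 times for let-7g, whose KD values spread least. let-7g passed let-7c and let-7e passed let-7a in the second order.

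Relative to the mean of the measured miRNAs, the members did not all keep their sign or their call. When each sample was centred on the mean Ct of the 95 measured miRNAs, which moved the median difference of all assays from -4.54 to -0.059, 5 of the 9 members were lower in KD samples, beside 19 of 95 assays (20.0%) lower and 19 (20.0%) higher. These were let-7i (-4.51, SE 0.58, limma adjusted p = 0.0012), let-7f (-3.34, SE 0.94), let-7c (-2.81, SE 0.72), let-7g (-2.63, SE 0.45) and let-7b (-2.22, SE 0.56). let-7a (-1.56, 95% interval -4.32 to 1.20) and let-7e (-1.51, 95% interval -2.74 to -0.27, limma adjusted p = 0.0526) did not pass. let-7d (0.21, 95% interval -1.61 to 2.02) and miR-98 (1.27, 95% interval -0.69 to 3.23) turned to the other sign and did not pass. After quantile normalization, let-7i and let-7g were the 2 members called lower, beside 5 of 95 assays lower (5.26%) and 8 higher (8.42%). Centring removes a mean change that the 88 assays with fixed KD means largely make up. With the members' own KD means fixed too, their centred differences mostly follow the order of their Intact levels. The split between members is therefore no separate result about the knockdown.

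**Figure D3:**
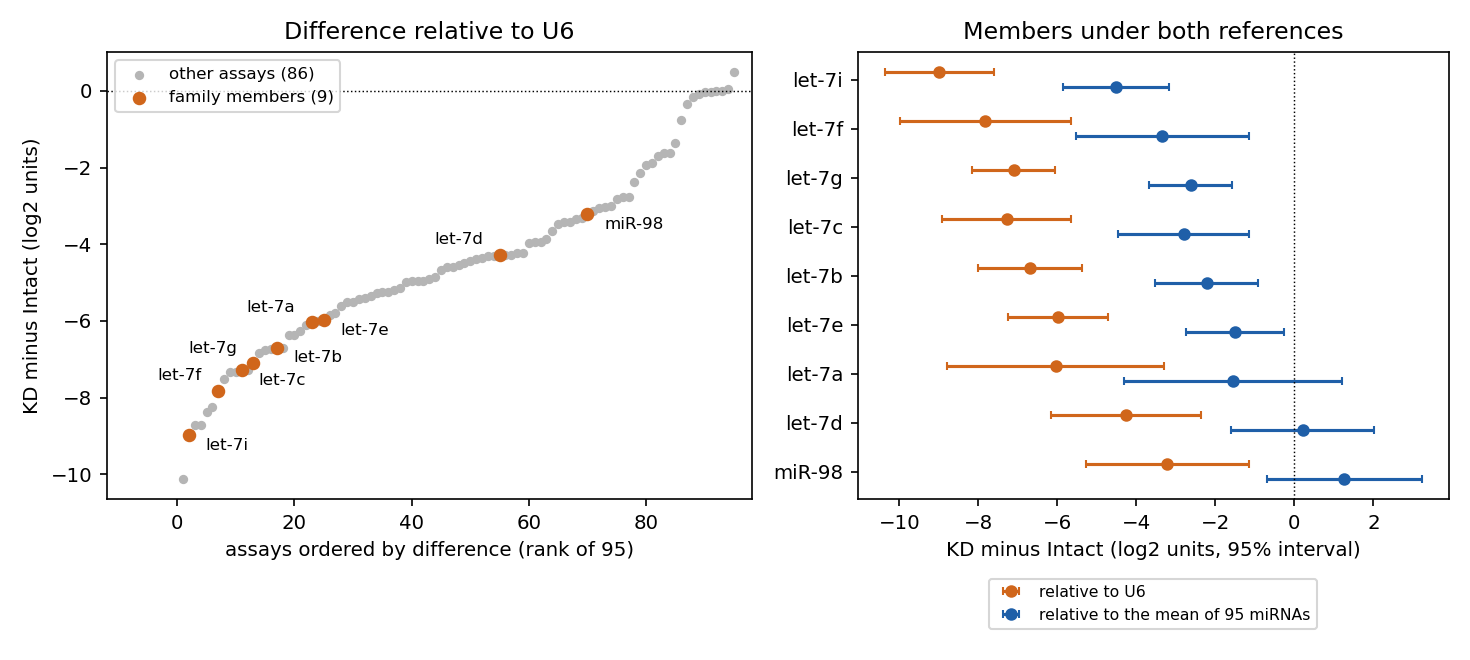
Left, KD minus Intact difference relative to U6 (log2 units) of all 95 assays in order of size, with the 9 members in orange. Right, the members' differences with 95% intervals from limma, relative to U6 (orange) and to the mean of the 95 miRNAs (blue). All 9 orange intervals lie below 0, and the blue intervals of let-7a, let-7d and miR-98 cross 0.

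Sequence likeness was set beside likeness of values over the 36 pairs of members. Pairs share members, samples and the U6 value, so this is a description without a test. The 4 pairs with 1 mismatch differed in mean Intact level by 0.43 (let-7b and let-7c), 0.82 (let-7a and let-7e), 1.92 (let-7a and let-7c) and 2.19 log2 units (let-7a and let-7f), each with the same sign in 3 of 3 samples. Assays for sequences 1 base apart therefore did not give the same reading, although the share of signal each took from its relatives was not tested. The median absolute difference was 1.37 with 1 mismatch, 1.44 with 2, 2.32 with 3 and 2.85 with 4 (Spearman's rho 0.41 over the 36 pairs). Pairs of 2 to 4 mismatches could still be close, such as let-7f and let-7g, 2 mismatches and 0.12 apart, and let-7c and let-7g, 3 mismatches and 0.15 apart.

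The pattern over the KD samples, which the fixed mean leaves free, did not follow the sequences in the same way (rho -0.14 over the 36 pairs). It was measured as the root mean square difference of 2 members' KD levels after each was centred on its own KD mean. let-7a, let-7b, let-7c and let-7f, each 1 mismatch from another of them, all had KD sample 1 highest and KD sample 3 lowest. Their 1-mismatch pairs differed by 0.56 for let-7b and let-7c, 0.60 for let-7a and let-7f and 1.10 for let-7a and let-7c. let-7e, also 1 mismatch from let-7a, had KD sample 3 highest and differed from it by 2.73. let-7d, which like let-7e was highest in KD sample 3, differed from let-7a by 3.32, the widest of all pairs, and from let-7e by 0.77. The nearest pair was let-7i and miR-98, at 0.11 with 4 mismatches, although their Intact levels were 5.74 log2 units apart. KD sample 1 was also highest and KD sample 3 lowest for miR-214 (0.54, -0.16 and -0.61). KD sample 3 was also highest for miR-21, miR-144 and miR-142-5p. The share of all assays with each order was not counted. By deposited Ct let-7b was highest in KD sample 3 (30.335, 31.047 and 30.168), so such orders also depend on U6.

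**Figure D4:**
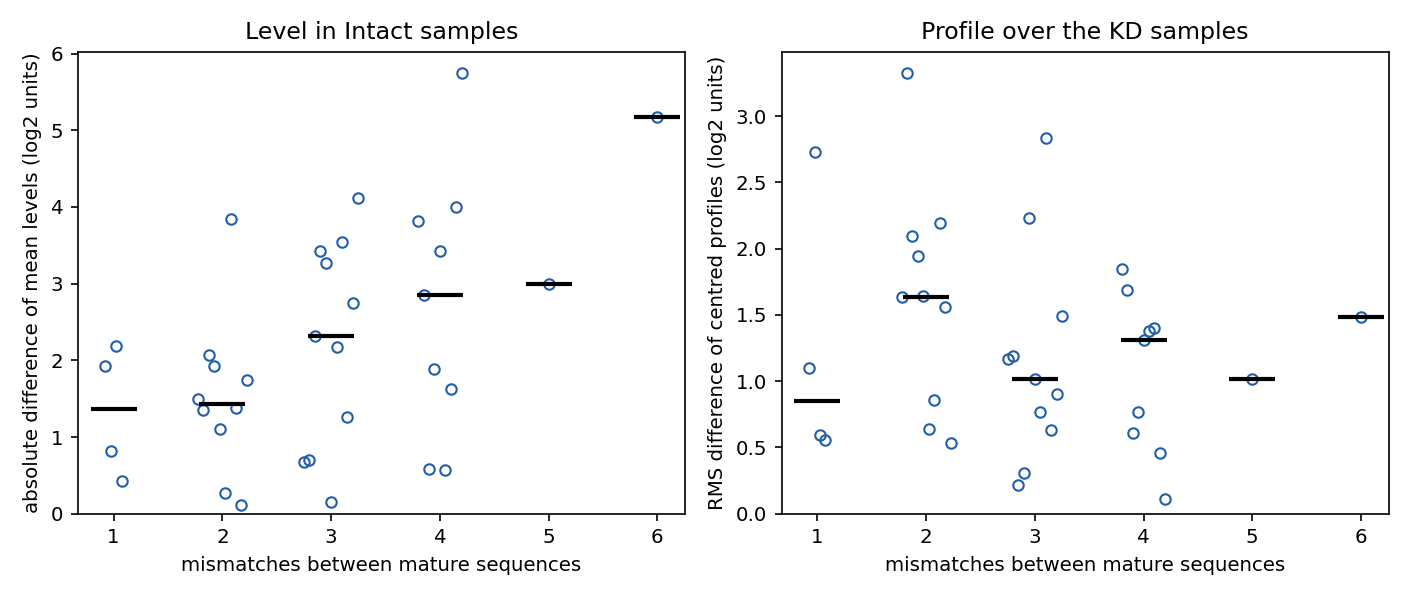
Each circle is 1 of the 36 pairs of members, placed by the mismatches between their mature sequences, and black bars are medians. The left axis is the absolute difference of mean Intact levels and the right axis the root mean square (RMS) difference of centred KD profiles, both in log2 units. Medians on the left rise from 1.37 to 2.85 between 1 and 4 mismatches, and on the right lie between 0.85 and 1.64 over the same classes.

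The readings of members made from neighbouring genes lay from 0.43 to 4.12 log2 units apart in the Intact samples, and since readings depend on the primers they are given as a description. On the minus strand of chromosome 13 (GRCm38.p6), Mirlet7a-1 (chr13:48538179-48538272), Mirlet7f-1 (chr13:48537829-48537917) and Mirlet7d (chr13:48536012-48536114) lie 261 and 1714 bases apart. The Intact means of let-7f and let-7d were 7.22 and 3.68, 3.54 log2 units apart in the same direction in 3 of 3 samples. let-7a and let-7f are also made elsewhere, from Mirlet7a-2 (chr9:41536716-41536811) and from Mirlet7f-2 (chrX:151912346-151912428), so these levels do not belong to 1 gene. On chromosome 15 Mirlet7c-2 (chr15:85706603-85706697) lies 621 bases from Mirlet7b (chr15:85707319-85707403), and let-7c and let-7b were 0.43 apart. Another let-7c gene, Mirlet7c-1, lies at chr16:77599657-77599750.

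On the X chromosome Mir98 (chrX:151913214-151913321) follows Mirlet7f-2 by 785 bases, both within the span of Huwe1, a ubiquitin ligase gene, and let-7f exceeded miR-98 by 4.12 ± 1.85 (SD of the difference within samples, n = 3). The other members with 1 gene each are let-7e (Mirlet7e, chr17:17830352-17830444, within the span of Spaca6), let-7g (Mirlet7g, chr9:106178840-106178927, within the span of Wdr82) and let-7i (Mirlet7i, chr10:122985640-122985724, in the span of no protein-coding gene of that annotation). Whether a hairpin lies in an exon or an intron was not read from these tables.

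The hairpin of let-7d is the one precursor of the family with both arms measured. It is printed from RefSeq 5′ to 3′ (GRCm38.p6, chr13:48536012-48536114, minus strand), with the guide let-7d at bases 16 to 37 and the passenger strand let-7d* at bases 70 to 91 in capitals.
Mirlet7d: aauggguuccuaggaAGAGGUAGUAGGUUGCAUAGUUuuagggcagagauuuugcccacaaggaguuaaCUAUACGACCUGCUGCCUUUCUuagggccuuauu

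The passenger strand, which is usually degraded when the guide is loaded, stood at 2.93, 2.89 and 3.72 in Intact and at 0.95, -1.38 and 0.065 in KD samples. Its Intact mean of 3.18 ± 0.47 lay below that of let-7d (3.68 ± 0.17, SD, n = 3 each) by 0.50 ± 0.38 (SD of the difference within samples), in 3 of 3 samples, with each plate's own U6 and different primers. With U6 of plate 1 for both, the difference was 0.37 ± 0.60, and Intact sample 3 turned to -0.32. It fell by 3.30 (SE 0.69, limma adjusted p = 0.00246), while the guide fell by 4.27. In KD samples 1, 2 and 3 the guide let-7d stood at -0.86, -2.08 and 1.15, above let-7d* only in KD sample 3. Over the KD samples let-7d minus let-7d* was -0.47 ± 1.45 (mean and SD of the difference within samples, n = 3). With U6 of plate 1 for both it was -0.36 ± 2.02. Relative to that U6 the linear KD mean of let-7d* was fixed at 1, as was that of let-7d. Neither the mean KD difference of the arms nor the gap between their falls is therefore a KD measurement of its own. The other 7 passenger strands assayed, of let-7a, let-7b, both let-7c genes, let-7f, let-7g and let-7i, had no value in any sample.

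The miR-99/100 and miR-125 families are transcribed together with several let-7 genes, and 3 of 5 such assays had values. miR-100, whose gene lies 5211 bases from Mirlet7a-2, stood at 4.62, 5.32 and 4.46 in Intact and at -0.098, 0.82 and -1.70 in KD samples, and it fell by 5.13 (SE 0.72). miR-99b, of the let-7e cluster, fell by 4.27 (SE 0.53). miR-99a, whose gene lies 656 bases from Mirlet7c-1, stood at -0.19, -0.22 and 0.47 in Intact and at -0.63, -0.016 and 0.45 in KD samples, and the groups overlapped (difference -0.085, 95% interval -1.30 to 1.13, limma adjusted p = 0.924). Thus 2 of the 3 fell, beside 80 of 95 assays (84.2%). The linear KD means of all 3 were also fixed at 1, so these differences mostly carry the Intact levels. The nearness of miR-99a to U6 in KD samples is for the same reason no measurement. In Intact samples its deposited mean level was 0.019, against 6.95 for let-7c, under the limit given above for Intact levels. miR-125a-5p and miR-125b-5p had no value, nor had the 3 assays with related seeds, miR-202-3p, miR-196a and miR-196b.

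The array carries no messenger RNA, so the OSCAR+CTR+ label could be set only beside miRNAs of cell types. Values were present for 3 of 5 myeloid markers (miR-223, miR-142-5p and miR-21, but not miR-155 or miR-142-3p), 2 of 5 epithelial, 4 of 4 stromal and osteoblast-lineage, 3 of 3 erythroid, 2 of 3 lymphoid and 1 of 2 endothelial markers. The markers with no value were miR-200b, miR-141 and miR-429 (epithelial), miR-181b (lymphoid) and miR-126-5p (endothelial). The stromal marker miR-199a-3p had the same Intact mean (4.93), KD mean (-0.026), difference (-4.95) and SE (0.48) as miR-24. It may therefore not be a reading of its own. On the log2 scale relative to U6 of plate 1, the summed level of the myeloid markers ran from 5.63 to 6.84 in Intact and from -0.059 to 2.71 in KD samples. That of the epithelial markers miR-200a and miR-200c ran from 10.00 to 10.74 and from 0.088 to 1.32, and that of the stromal markers from 7.80 to 8.75 and from 1.83 to 2.20. The 9 let-7 members summed to 9.87 to 10.36 in Intact and 2.81 to 3.65 in KD samples. The sums of the erythroid markers ran from 3.90 to 4.10 and from 0.53 to 2.33, of the lymphoid markers from 4.57 to 4.75 and from 0.45 to 1.45, and of the endothelial marker from 3.18 to 5.45 and from -0.89 to 0.41. Each of these markers, like the members, had its linear KD mean fixed at 1. The KD sums therefore follow the number of assays summed and do not compare cell types. The part of the markers' cell types in the let-7 levels was not tested.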

How the data were processed

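Osteoclast RNA of 3 Intact and 3 KD samples was taken up in Trizol, copied into cDNA by QuantiMir reverse transcription and run through 40 PCR cycles with SYBR Green on a ViiA7, per the labels' protocols. The authors deposited threshold cycles for 717 wells, delta Ct on a log2 scale for 709 assays and a table of folds, per the file headers. Deposited Ct minus delta Ct was 1 constant per sample and plate, equal to 1 well on each plate, taken as U6. The rule behind a missing value was not stated, and 614 assays had no value in any sample. The IDs of 48 wells, turned into scientific notation, were restored.

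Tests covered assays with a deposited Ct (adjusted in KD samples, as described above) under 35 in 3 samples or more, which all 95 met. Minus delta Ct was fitted with limma 3.58.1 in R 4.3.3 (lmFit, eBayes, no covariate, two-sided). The p-values were adjusted over all 95 assays by Benjamini and Hochberg's method, with 0.05 as the threshold. The fit was also run on 25 simulated sets of independent values. It called 94.7% of assays with a simulated fall of 5 log2 units, 60% at 2, 17.1% at 1 and 1.66% at 0. The simulated KD values had no fixed mean, so these shares do not cover that limit. A PCR array has no read depth, and the number of samples limits the precision. The miRNAs named were the 9 members, their passenger strands, clustered neighbours, related seeds, cell type markers and the 5 other assays with the nearest profile, and miR-1961 was named after its sequence was seen. The members and lists were chosen with earlier results of these data known. The alternatives were no reference, U6 of plate 1, centring, quantile normalization, other Ct filters, a variance trend, a replicate block, omission of each sample and, added after seeing the data, ratios of linear means and U6 of plate 1 for both arms of let-7d.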

Additional observations from a re-analysis of the deposited data

How the results depend on the processing

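All 9 members stayed below 0 and past the threshold (limma) with no reference, U6 of plate 1, both other Ct filters, a variance trend, the replicate block and each omission of 1 sample. Over the omissions 75 to 81 assays and all 9 members were called lower. The members' median ran from -7.17 to -6.42 and was -7.31 with no reference, a setting that rests on the adjusted Ct values of the KD samples. Centring on the measured miRNAs left 19 assays and 5 members called lower, with a median of -2.22, let-7a at -1.56, let-7e at -1.51, and let-7d (0.21) and miR-98 (1.27) reversed. Quantile normalization left 5 assays and 2 members, with a median of -1.49, let-7a at -1.24, let-7b at -1.49, let-7c at -1.91, let-7d at -0.29, let-7e at -1.16, let-7f at -2.48, and miR-98 reversed at 0.95. Both subtract most of the change shared by the 95 assays. In the order of Intact levels, 7 of 8 neighbours kept their places without any 1 Intact sample (let-7g and let-7c changed places without sample 1, let-7d and miR-98 without sample 2, let-7f and let-7g without sample 3). Same-numbered samples deviated together with r = 0.025, 0.10 and 0.081 across assays, and KD sample 1 did not correlate best with its own number, so the numbers were not taken to pair the samples; with the replicate block 82 assays and 9 members were called, with a median of -6.70.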

Other observations

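Outside the 9 members, the assays nearest to the mean profile of the 9 members over the 6 samples were listed by the root mean square difference after each profile was centred on its own mean. The nearest was miR-99b*, the passenger strand of miR-99b from the let-7e cluster, at 0.38 log2 units, with an Intact mean of 6.55, a KD mean of -0.15 and a difference of -6.70. miR-183 followed at 0.48 (difference -5.99), then miR-148b at 0.58 (-5.42), miR-214 at 0.59 (-7.33) and miR-652 at 0.61 (-5.61). Among the members, let-7b lay closest to the family mean at 0.23 and miR-98 farthest at 1.82. With the KD means fixed, this likeness is mostly one of Intact level.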
